A study of Mus musculus with 27 samples.

Results

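The 5 genes described here encode the secreted and membrane-bound factors through which stromal cells regulate osteoclasts: Tnfsf11 (RANKL), Tnfrsf11b (osteoprotegerin), Csf1 (M-CSF), Il34 (interleukin-34) and Il6 (interleukin-6). They were taken by symbol, and all 5 were found among the 30153 gene entries of the table and passed the filter on low values, which kept 18442 genes. They were followed through 27 RNA-seq libraries of tdTomato-labelled, CD45- cells from the hindlimbs of Prx1-CreER/Ai14/Rag1 mice. Every animal carried the same 3 alleles: a tamoxifen-inducible Cre driven by the Prx1 promoter, the Ai14 reporter that turns on tdTomato after recombination, and the Rag1 mutation, which leaves mice without mature B and T cells. Male and female mice of 8 to 12 weeks were given tamoxifen and harvested 3 days after the last injection, so that the label marks cells with Prx1 promoter activity and their early progeny, in whichever cell type that activity lay. Bone marrow was flushed from femur and tibia, periosteum was scraped from the same bones and digested with collagenase, and the muscle around the femur was digested for longer. From each tissue, 3 subpopulations were sorted: P1, which lacked CD105 and carried CD200, P2, which lacked both, and P3, which carried CD105 with or without CD200. Each of the 9 groups has 3 libraries. The labels state that all tissues came from the same animals but not which animal gave which library, so p-values treat the libraries as independent.

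Osteoclasts arise by fusion of monocyte-lineage precursors. Csf1 and Il34 are distinct ligands of the receptor Csf1r, which keeps these precursors alive and proliferating. Tnfsf11 binds the receptor RANK (Tnfrsf11a) on the precursors and drives their differentiation, and Tnfrsf11b is a soluble decoy receptor that captures Tnfsf11 and blocks it. Il6 signals through Il6ra and Il6st and is known to raise Tnfsf11 in stromal and osteoblastic cells. In bone, osteoblast-lineage cells, osteocytes and adipogenic marrow stroma are known sources of Tnfsf11.

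On the mouse assembly GRCm38 (GENCODE M21), Tnfsf11 lies at chr14:78277445-78308043 on the minus strand, Tnfrsf11b at chr15:54250619-54278484 on the minus strand, Csf1 at chr3:107741048-107760469 on the minus strand, Il34 at chr8:110741829-110805924 on the minus strand and Il6 at chr5:30013114-30019981 on the plus strand. All are annotated as protein-coding genes. Exons of Il34 overlap the spans of the antisense genes Gm15894 and Gm15895, neither of which has an entry in the table. The exons of these antisense genes were not compared with those of Il34. The sources do not state whether reads were counted by strand, so whether reads of these antisense genes were counted for Il34 is unknown. The promoters of Il6 and Tnfsf11 are shown because these genes differed from bone marrow in opposite directions. They are the 250 bases upstream of the RefSeq start site (assembly GRCm38.p6), at chr5:30012864-30013113 on the plus strand and chr14:78308044-78308293 on the minus strand. Capitals mark matches to 6 motifs searched on both strands: AP-1 (TGANTCA), a CRE half-site (TGACG), C/EBP (TTNNGNAAT), NF-kB (a motif of 10 letters, matched as the capitals nearest the end of the Il6 window show), TATA (TATAA) and a GC box (GGGCGG).
Il6: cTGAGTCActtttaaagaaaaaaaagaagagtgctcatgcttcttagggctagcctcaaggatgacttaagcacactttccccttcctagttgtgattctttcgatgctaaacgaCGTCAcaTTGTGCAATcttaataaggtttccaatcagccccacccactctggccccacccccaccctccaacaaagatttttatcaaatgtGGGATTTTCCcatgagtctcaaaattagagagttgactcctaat
Tnfsf11: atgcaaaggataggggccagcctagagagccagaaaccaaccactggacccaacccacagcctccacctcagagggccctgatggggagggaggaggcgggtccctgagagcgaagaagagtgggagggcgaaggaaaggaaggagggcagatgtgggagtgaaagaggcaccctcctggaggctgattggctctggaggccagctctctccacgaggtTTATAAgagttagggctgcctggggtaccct
The Il6 window held the AP-1 motif from -249 to -243, the CRE half-site from -135 to -131, the C/EBP motif from -128 to -120 and the NF-kB motif from -44 to -35, counted from the start site. Of 32851 such windows in the mouse table, 6.75% held the AP-1 motif, 17.8% the CRE half-site, 10.2% the C/EBP motif and 1.41% the NF-kB motif. The Tnfsf11 window matched the TATA motif on each strand, at overlapping positions from -31 to -27 and from -30 to -26, a motif present in 22.8% of the windows. The Csf1 window, not printed, held an NF-kB motif from -154 to -145 and 2 GC boxes, which 32.7% of the windows held. A match is a description of the letters and no evidence of binding.

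Values are the normalized counts of the deposited table, without a correction for gene length. Their sums ran from 8631880 to 26230900 per library, and 12396 to 21675 genes were above 0. The read depth behind them is unknown, so no counting error can be given, and a value of 0 means only that a gene is listed at 0. Globin genes made up 44.2% to 47.3% of the sum in bone marrow P2 and 24.1% to 38.6% in periosteum P2, against at most 4.28% elsewhere. Mean correlations of a library with its replicates, over all genes kept, were 0.863 to 0.952 among muscle libraries and 0.792 to 0.930 among marrow libraries; periosteal libraries gave 0.639 to 0.792, lowest in P2. The sorting marker Eng (CD105) followed the gates, averaging 1195 to 5765 in the P3 groups and 69.5 to 359.7 in the P1 and P2 groups. Cd200 had its lowest mean in P2 of each tissue. In muscle P2 it averaged 396 ± 617 and reached 1107, above the lowest muscle P1 library at 1025. Ptprc, which encodes CD45, was lowest in periosteum P1 at 4.12 ± 5.12 and highest in bone marrow P2 at 610.4 ± 267 (SD, n = 3). Summed over 15 leukocyte genes, bone marrow libraries reached 9439 to 193912 and muscle libraries 297 to 1012. Prrx1, the gene of the Prx1 promoter, named here after its values were seen, was lowest in bone marrow P2 at 110.1 ± 53.3 and 335 to 2879 on average in every other group. Muscle P2 held a summed level of 1697890 to 1827860 over 6 myofibre genes, against at most 39521 in any other group.

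Against bone marrow, Il6 and Tnfsf11 differed in opposite directions. Il6 was higher in muscle than in periosteum and at or near 0 in bone marrow, whereas Tnfsf11 was higher in bone marrow than in either other tissue and was not called between muscle and periosteum. Csf1 and Il34 were higher in muscle than in periosteum, but the Csf1 call was lost under 4 alternative settings described below and the Il34 call under none. Tnfrsf11b was not called between any pair of tissues averaged over the subpopulations. Differences were tested with limma on log2(normalized count + 1) and called at an adjusted p (Benjamini-Hochberg over all 18442 genes) under 0.05 with a log2 difference over 1.5 in size. In muscle against periosteum 3 of the 5 genes were called, where 20.4% of all genes were. In muscle against bone marrow 2 of 5 were called beside 21.7% of all genes, and in periosteum against bone marrow 2 of 5 beside 20.8%. These comparisons share libraries.

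**Figure D1:**
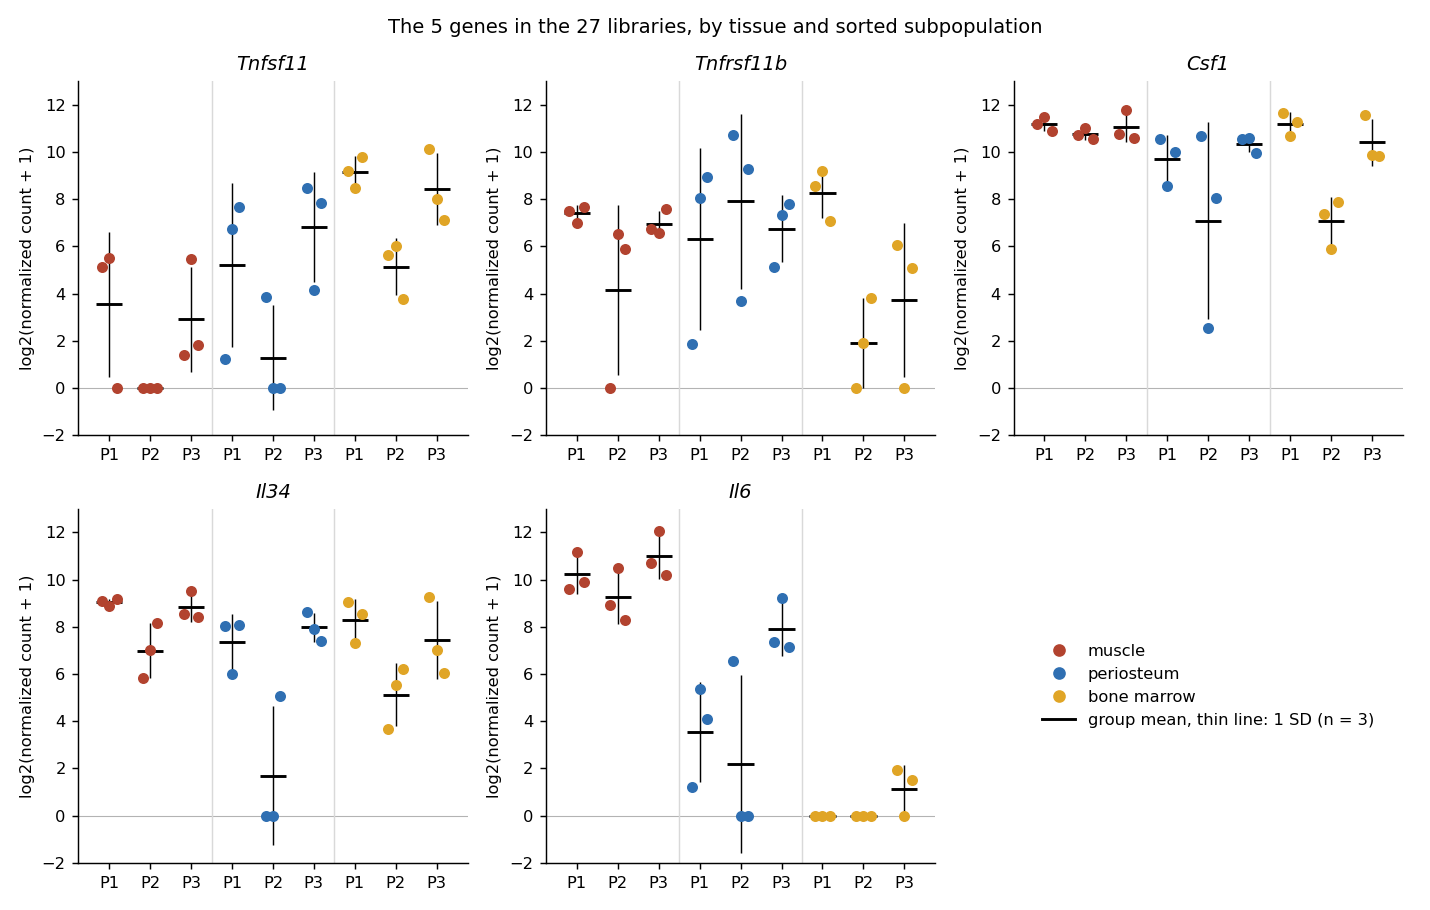
Each point is 1 library, placed by its log2(normalized count + 1), in 9 groups of 3; thick bars are group means and thin lines 1 SD. Il6 points fall from muscle through periosteum to bone marrow, Tnfsf11 points are highest in bone marrow P1 and P3, and the Csf1 point of periosteum P2 replicate 2 lies far below the other Csf1 points.

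The genes as a whole were not balanced between tissues. The median difference over all genes tested was 0.56 in muscle minus periosteum, -0.097 in muscle minus bone marrow and -0.69 in periosteum minus bone marrow, on the log2 scale. In muscle against periosteum 3178 genes were called higher and 589 lower, and in periosteum against bone marrow 740 higher and 3097 lower. Under quantile normalization, which gives every library the same distribution, these splits became 1915 against 1971 and 1582 against 1574, and the medians moved by -0.58 and by 0.60. A difference of a single gene is therefore best read against these medians.

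Tnfsf11 is the ligand that drives osteoclast differentiation. In bone marrow P1 its normalized counts were 586, 354 and 889 in replicates 1, 2 and 3. In bone marrow P3 they were 1117, 257 and 139, and in bone marrow P2 they were 48.0, 64.3 and 12.8. All 9 marrow libraries were thus above 10, with P2 below every library of P1 and P3. In periosteum P1 the counts were 1.33, 104 and 201, and in periosteum P3 they were 350.1, 16.6 and 227. In periosteum P2 they were 13.4, 0 and 0. Periosteal libraries spread over the whole span between muscle and marrow. In muscle P1 the counts were 34.2, 44.5 and 0, in muscle P3 they were 1.64, 43.5 and 2.57, and all 3 libraries of muscle P2 were listed at 0. No muscle library exceeded 44.5, while 6 of 9 marrow libraries exceeded 100. By group mean, the order ran from bone marrow P1 (609.5 ± 268, SD, n = 3) through bone marrow P3, periosteum P3, periosteum P1, bone marrow P2, muscle P1, muscle P3 and periosteum P2 to muscle P2, and each group's range overlapped that of the next.

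Averaged over the subpopulations, Tnfsf11 was lower in muscle than in bone marrow by a log2 difference of -5.42 (SE 0.97, adjusted p = 1.255e-04), an average that includes muscle P2, listed at 0. It was lower in periosteum than in bone marrow by -3.14 (SE 0.97, adjusted p = 0.01914), and muscle against periosteum gave -2.28 (adjusted p = 0.08582), which was not called. Leaving out any 1 library kept both calls, with differences of -5.85 to -4.83 and -3.57 to -2.48. The periosteal call was lost under quantile normalization (-1.94, adjusted p = 0.09631) and without the periosteum library with the fewest genes above 0 in each group (-1.82, adjusted p = 0.1316). Under both of these, muscle against periosteum was called instead, at -3.37 and -3.60. Because sorted cells were measured in bulk, fewer producing cells and less RNA per cell cannot be told apart for any gene here.

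Within single subpopulations, Tnfsf11 was lower in muscle than in bone marrow in P1 (-5.61, adjusted p = 0.03444) and in P3 (-5.52, adjusted p = 0.03171). The P1 ranges did not overlap, nor did those of P3. It was also called lower in muscle P2, listed at 0 throughout, than in bone marrow P2 (adjusted p = 0.01704). These calls were close to the threshold. The P1 call was lost without muscle P1 replicate 3 (-3.83) or any marrow P1 replicate (-5.95 to -5.29). The P3 call was lost without muscle P3 replicate 1 or 3 or any marrow P3 replicate (-6.17 to -4.67). The P2 call was lost without marrow P2 replicate 1 or 2 (adjusted p = 0.05213 and 0.05374). Other settings lost the same calls. The P1 call was lost under 5 of them (adjusted p of 0.05884 to 0.07106). A pseudocount of 0.1 (adjusted p = 0.1131) and no filter (adjusted p = 0.05103) lost the P3 call. A pseudocount of 5 (adjusted p = 0.05181) and quantile normalization (adjusted p = 0.08929) lost the P2 call. Among the subpopulations of 1 tissue, Tnfsf11 was called in periosteum, lower in P2 than in P3 (-5.53, SE 1.67, adjusted p = 0.02482). This call was lost without periosteum P2 replicate 2 or 3 or periosteum P3 replicate 1 or 3 (-5.01 to -4.70). It was also lost with groups fitted alone (adjusted p = 0.3596). In marrow, P1 minus P2 was 4.01 (adjusted p = 0.06433) and was called under quantile normalization (5.59, adjusted p = 0.004253).

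Across the 27 libraries the genes most like Tnfsf11 on the log2 scale were Adipoq (Pearson r = 0.857), which encodes adiponectin, Pappa (0.841), a protease of insulin-like growth factor binding proteins, and Serpina3g (0.826), a serine protease inhibitor. The points share library and scaling, and these values describe likeness only. The marker genes of adipogenic marrow stroma were Lepr, Cxcl12, Kitl, Adipoq, Lpl, Cebpa, Pparg and Ebf3. Their highest sums per library lay in bone marrow P1 and P3, where Tnfsf11 was highest. Single genes differed: Pparg and Kitl averaged highest in muscle P3, at 147 and 2089, and the others in bone marrow P1. Their summed normalized count was 39586 to 93652 in bone marrow P1, 36632 to 130613 in P3 and 2634 to 3691 in P2, against 5290 to 23377 in muscle and 1396 to 45754 in periosteum. In bone marrow P2 the sums lay below all muscle libraries, although its mean Tnfsf11 was above those of the muscle groups. Cxcl12 was the highest of the list in all 3 marrow groups, and none of the 8 genes was at 0 in a whole marrow group. The highest sum belonged to bone marrow P3 replicate 1, which also had the highest Tnfsf11 of all 27 libraries and the highest Csf1 and Il34 of bone marrow P3. Between muscle and bone marrow 4 of the 8 (Adipoq, Cebpa, Cxcl12 and Lepr) were called lower in muscle, and none higher. Of all genes 21.7% were called there, in either direction. The share of this list in the Tnfsf11 differences was not tested. Sums over osteoblast genes, led by Col1a1, were 3037050 to 5135800 in bone marrow P1 and 38390 to 108274 in P3, groups whose Tnfsf11 ranges overlapped.

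**Figure D2:**
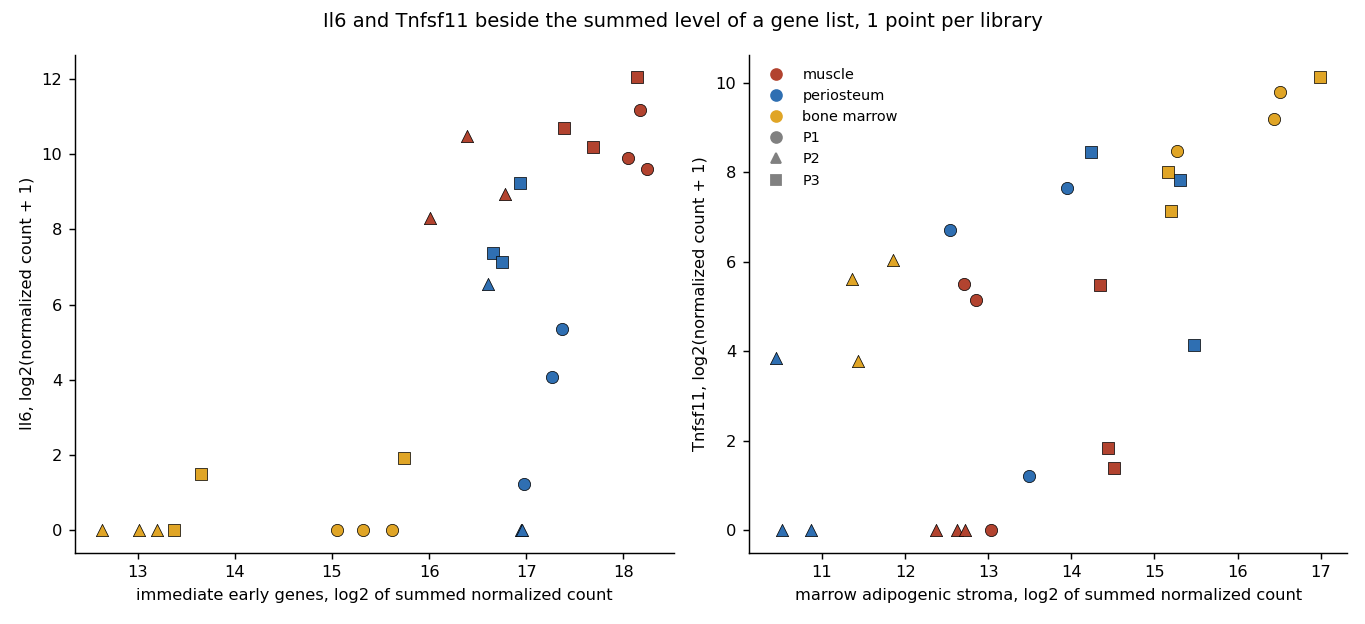
Each point is 1 library, coloured by tissue and shaped by subpopulation. On the left Il6 is set against the log2 sum of 11 immediate early genes, and on the right Tnfsf11 against the log2 sum of 8 genes of adipogenic marrow stroma; marrow libraries hold the lowest immediate early sums and Il6 values up to 2.80, while the 3 highest stromal sums go with the 3 highest Tnfsf11 values.

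Tnfrsf11b is the decoy receptor that neutralizes Tnfsf11. In periosteum P2 its normalized counts were 1698, 12.04 and 626 in replicates 1 to 3, in periosteum P1 they were 2.65, 265 and 495, and in periosteum P3 they were 33.9, 157 and 221. In bone marrow P1 they were 369.5, 579.8 and 135, against 0, 2.80 and 12.8 in P2 and 65.7, 0 and 32.9 in P3. Marrow P1 libraries all lay above those of both other marrow subpopulations. In muscle P1 the counts were 182, 127 and 203, in muscle P3 they were 106, 93.5 and 188, and in muscle P2 they were 0, 92.2 and 58.3. Muscle P1 averaged 171 ± 39.3 and muscle P3 129 ± 51.0 (SD, n = 3), while in periosteum P2 the SD exceeded the mean. The order by group mean ran from periosteum P2 (779 ± 853) and bone marrow P1 (361 ± 222) through periosteum P1, muscle P1, periosteum P3, muscle P3, muscle P2 and bone marrow P3 to bone marrow P2 (5.21 ± 6.75). Neighbours overlapped except muscle P3 and muscle P2.

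None of the 3 tissue comparisons called Tnfrsf11b. The largest difference was periosteum minus bone marrow, 2.35 (SE 1.12, adjusted p = 0.1231), which reached 3.55 under quantile normalization (adjusted p = 0.004652) and 3.70 without the fewest-gene periosteum library of each group (adjusted p = 0.007729). Within bone marrow, P1 exceeded P2 by 6.36 (SE 1.93, adjusted p = 0.01347), and P1 minus P3 was 4.55 (adjusted p = 0.1964). The first of these was lost without marrow P1 replicate 2 (5.91) or P2 replicate 1 (5.41). Periosteum P2 exceeded bone marrow P2 by 6.003 (adjusted p = 0.02889). This call was lost without periosteum P2 replicate 1 (4.59) or 3 (5.31) or marrow P2 replicate 1 (5.05) or 2 (6.01). It was also lost with groups fitted alone (adjusted p = 0.1814) and with a pseudocount of 0.1 (adjusted p = 0.05038). The difference of P1 from the mean of P2 and P3 was lower in periosteum than in bone marrow by -6.49 with an unadjusted p of 0.0115 in limma, and did not pass the adjustment (adjusted p = 0.1587). Summed over 8 chondrocyte genes, led by Col2a1 in periosteum, periosteum P2 libraries held 293924 to 725012 and bone marrow P2 libraries 137 to 669, with none of the 8 at 0 in either group. Of these genes 7 were called higher in periosteum than in bone marrow and 7 higher in periosteum than in muscle. Of all genes 20.8% and 20.4% were called in these comparisons, in either direction. The part of the chondrocyte genes in the Tnfrsf11b values was not tested. Genes most like Tnfrsf11b were Wls (r = 0.834), which carries Wnt proteins to the cell surface, Apbb1 (0.781), an adaptor of the amyloid precursor protein, and Mageh1 (0.773).

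The balance of ligand and decoy receptor was read as log2 of (Tnfsf11 + 1)/(Tnfrsf11b + 1) in each library, as a description without a test. Since the values are not per length, only differences of the ratio between libraries carry meaning. Of the 27 libraries, 6 were listed at 0 for Tnfsf11 and 3 for Tnfrsf11b, so the sizes of these differences depend on the pseudocount. The ratio averaged -3.85 ± 3.34, -4.14 ± 3.60 and -4.05 ± 2.58 (SD, n = 3) in muscle P1, P2 and P3. It averaged -1.09 ± 0.39, -6.63 ± 2.80 and 0.066 ± 3.25 in the same subpopulations of periosteum, and 0.89 ± 1.72, 3.24 ± 2.91 and 4.71 ± 3.04 in those of bone marrow. In muscle the ratio was at most -1.08 apart from P2 replicate 1, where both genes were at 0, and in bone marrow it was at least -0.71. Periosteal libraries ran from -9.29 to 3.33 and overlapped both. Averaged over the subpopulations, muscle minus bone marrow was -6.96, periosteum minus bone marrow -5.50 and muscle minus periosteum -1.46, where the pooled SD within groups was 2.79. The last of these was smaller than that spread.

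**Figure D3:**
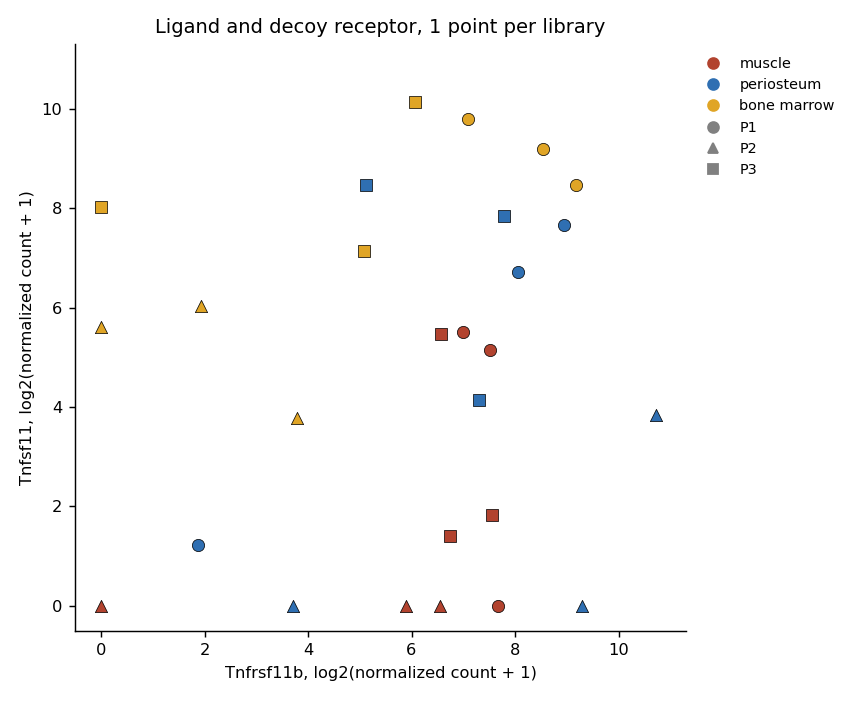
Each point is 1 library, with Tnfrsf11b on the x axis and Tnfsf11 on the y axis, both as log2(normalized count + 1), coloured by tissue and shaped by subpopulation. Muscle libraries lie low on the y axis, at Tnfsf11 counts up to 44.5, marrow P1 and P3 libraries lie at 139 or more, and periosteal libraries spread over both axes.

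Csf1, the main ligand of Csf1r, was the most abundant of the 5 genes in 6 of the 9 groups when divided by exon length. In muscle P1 its normalized counts were 2319, 2864 and 1868, in muscle P2 they were 1691, 2076 and 1473, and in muscle P3 they were 1745, 3510.3 and 1532. All 9 muscle libraries exceeded 1000. In bone marrow P1 the counts were 3188, 1617 and 2464, in bone marrow P2 they were 165, 58.6 and 235, and in bone marrow P3 they were 3018, 924 and 896. Marrow P2 was below every other marrow library. In periosteum P1 they were 1476, 371 and 1009, in periosteum P3 they were 1473, 1530.3 and 976, and in periosteum P2 they were 1649.7, 4.79 and 263. The value of 4.79 in periosteum P2 replicate 2 was the lowest of all 27. That library also held a summed leukocyte level of 70504, against 867 and 6334 in its replicates. It had 13103 genes above 0, against 15368 and 14396, and a globin share of 38.6%, against 24.1% and 32.1%. The part of any of these in the Csf1 value was not tested. The order by group mean ran from bone marrow P1 (2423 ± 787) through muscle P1, muscle P3, muscle P2, bone marrow P3, periosteum P3, periosteum P1 and periosteum P2 to bone marrow P2 (153 ± 88.9), and neighbours overlapped throughout.

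Averaged over the subpopulations, Csf1 was higher in muscle than in periosteum by 1.95 (SE 0.65, adjusted p = 0.03175). Without periosteum P2 replicate 2 the difference was 1.19 and below the fold threshold. Without muscle P1, P2 or P3 replicate 2 or periosteum P1 replicate 2 it was 1.76 to 1.91 with an adjusted p of 0.05304 to 0.06368. The call was also lost without the filter (adjusted p = 0.05281) and with equal library totals without globins (adjusted p = 0.06241). It was lost as well with groups fitted alone (adjusted p = 0.0857). Without the fewest-gene periosteum libraries the difference was 1.37, below the fold threshold. Muscle minus bone marrow was 1.44 (adjusted p = 0.1083) and periosteum minus bone marrow -0.51 (adjusted p = 0.5967). In P2, muscle exceeded bone marrow by 3.70 (SE 1.13, adjusted p = 0.012) and periosteum by 3.67 (adjusted p = 0.01732). The first of these was 3.13 and lost without marrow P2 replicate 2. The second fell short without muscle P2 replicate 2 (3.54) or periosteum P2 replicate 2 (1.39), and with groups fitted alone (adjusted p = 0.3446). Within bone marrow, P1 exceeded P2 by 4.13 (SE 1.13, adjusted p = 0.006944), and this was kept without any 1 library, at 3.56 to 4.55. Marrow P2 was also below P3 by -3.35 (adjusted p = 0.03719), lost without any 1 of their 6 libraries (-3.77 to -2.78). Periosteum P2 was below P3 by -3.26 (adjusted p = 0.04839), a call that 23 of the 27 fits with 1 library left out did not keep. The difference was -0.98 without periosteum P2 replicate 2, and with groups fitted alone its adjusted p was 0.5602. The genes most like Csf1 were Zcchc24 (r = 0.915), Ptpn9 (0.914), a tyrosine phosphatase, and Sgcb (0.911), a sarcoglycan of the dystrophin complex.

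Il34 is the alternative ligand of Csf1r. Its normalized counts were 545, 466 and 571 in muscle P1, 369.9, 737 and 343 in muscle P3 and 55.4, 127 and 283 in muscle P2. In bone marrow P1 they were 522, 157 and 368, in bone marrow P3 they were 620.5, 128 and 65.2, and in bone marrow P2 they were 11.6, 44.98 and 72.8. In periosteum P1 they were 264, 62.8 and 266, in periosteum P3 they were 397, 236 and 167, and in periosteum P2 they were 0, 0 and 33.0. In each tissue the P2 group had the lowest mean, and in muscle and periosteum its libraries lay below all those of P1 and P3. Over all groups the order ran from muscle P1 (527 ± 54.5) through muscle P3, bone marrow P1, bone marrow P3, periosteum P3, periosteum P1, muscle P2 and bone marrow P2 to periosteum P2 (10.98 ± 19.0), with overlap between neighbours throughout.

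Averaged over the subpopulations, Il34 was higher in muscle than in periosteum by 2.61 (SE 0.65, adjusted p = 0.00516), kept without any 1 library at 2.32 to 3.17. Muscle minus bone marrow was 1.33 (adjusted p = 0.1389) and periosteum minus bone marrow -1.27 (adjusted p = 0.152). Within P2, muscle exceeded periosteum by 5.29 (SE 1.13, adjusted p = 0.001088), a call lost with groups fitted alone (adjusted p = 0.1509). Periosteum P2 was below bone marrow P2 by -3.43 (adjusted p = 0.03221), a call lost without periosteum P2 replicate 1 or 2 or marrow P2 replicate 2 or 3 (-3.23 to -2.58). It was also lost under quantile normalization (-1.11) and with groups fitted alone (adjusted p = 0.3041). Within periosteum, P1 exceeded P2 by 5.67 (SE 1.13, adjusted p = 9.556e-04) and P2 was below P3 by -6.28 (adjusted p = 4.711e-04). Both held without any 1 library and were lost with groups fitted alone (adjusted p = 0.2876 and 0.2646). In periosteum P2, 2 of 3 libraries were listed at 0, so the sizes of differences against it depend on the pseudocount. Within bone marrow, P1 exceeded P2 by 3.16 (adjusted p = 0.03237), lost without marrow P1 replicate 1 or 3 or P2 replicate 1 (2.42 to 3.04). The genes most like Il34 were Tex264 (r = 0.881), a receptor for autophagy of the endoplasmic reticulum, Wdr6 (0.877) and Spred1 (0.861), an inhibitor of Ras signalling. Among the pairs of the 5 genes, r was highest for Csf1 and Il34, at 0.708.

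Il6 had the widest span of the 5 genes. In muscle P3 its normalized counts were 1671, 4236 and 1165, in muscle P1 they were 774, 2320.0 and 960.2, and in muscle P2 they were 487, 1442 and 313. In periosteum P3 they were 164, 597 and 139.9, in periosteum P1 they were 1.34, 40.1 and 16.0, and in periosteum P2 they were 92.1, 0 and 0. All libraries of bone marrow P1 and P2 were listed at 0, and those of P3 were 2.80, 0 and 1.83. Within each subpopulation every muscle library exceeded every periosteal and marrow library. The lowest muscle value was 313 and the highest marrow value 2.80, and the 3 libraries of periosteum P3 were the only periosteal ones above 100. The order by mean ran from muscle P3 (2357 ± 1647) through muscle P1, muscle P2, periosteum P3 (300.5 ± 257), periosteum P2, periosteum P1 and bone marrow P3 (1.54 ± 1.42) to bone marrow P1 and P2. Neighbours overlapped except periosteum P3 and periosteum P2.

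Il6 was higher in muscle than in periosteum by 5.60 on the log2 scale (SE 0.78, adjusted p = 1.283e-05), with 5.21 to 6.33 when any 1 library was left out. It was higher in muscle (adjusted p = 8.233e-10) and in periosteum (adjusted p = 3.579e-04) than in bone marrow. No fold is given against any bone marrow group, since 7 of the 9 libraries were listed at 0. Within single subpopulations Il6 was called in 6 of 9 tissue comparisons, each higher in the first-named tissue: muscle P1, P2 and P3 against bone marrow, muscle P1 and P2 against periosteum, and periosteum P3 against bone marrow P3. Muscle P1 exceeded periosteum P1 by 6.67 (SE 1.35, adjusted p = 0.003646) and muscle P2 exceeded periosteum P2 by 7.06 (adjusted p = 3.634e-04). Muscle P3 minus periosteum P3 was 3.07 (adjusted p = 0.2109). Periosteum P3 exceeded bone marrow P3 (adjusted p = 0.002488), and within periosteum P2 was below P3 by -5.73 (adjusted p = 0.005081). None of these was lost without any 1 library. With groups fitted alone, 3 were lost: muscle P1 and P2 against periosteum, and periosteum P2 against P3 (adjusted p = 0.05186, 0.1137 and 0.3949). Periosteum P2 had 2 of 3 libraries at 0, so the sizes of differences against it depend on the pseudocount. Without the fewest-gene library of each periosteum group, periosteum P2 minus P3 was -3.98 (adjusted p = 0.05888).

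Genes most like Il6 were Hspb1 (r = 0.895), a small heat shock protein, Tpm3 (0.894), a tropomyosin, and Tnfaip6 (0.893), a matrix-binding protein induced by inflammatory cytokines. Immediate early genes, which respond within minutes to stimuli that include tissue dissociation, were lowest where Il6 was, in bone marrow. Over 11 such genes the summed normalized count was 270197 to 309065 in muscle P1, 171752 to 289449 in P3 and 65722 to 112491 in P2. It was 99857 to 169622 in the 9 periosteal libraries and 6359 to 54825 in the 9 marrow libraries. Egr1 led the list in muscle P1 and P2, and Fos in muscle P3 and all periosteal groups. Called higher than in bone marrow were 10 of the 11 in muscle and 10 of the 11 in periosteum, and 0 of the 11 were called between muscle and periosteum. Of all genes 21.7%, 20.8% and 20.4% were called in these comparisons, in either direction. Outside bone marrow the list and Il6 had different orders. Muscle P2 sums overlapped those of periosteum P2, 99857 to 126830, and every muscle P2 library had more Il6. The highest muscle sum was in P1 and the highest Il6 in P3. In periosteum, P1 sums were 128933 to 169622 and P3 sums 103268 to 125384. The Il6 counts were 1.34 to 40.1 in P1 and 139.9 to 597 in P3. The part of the immediate early genes in the Il6 differences was not tested. Summed over 8 genes of fibro-adipogenic progenitors, muscle libraries reached 28995 to 91755, periosteal libraries 6300.5 to 49716 and marrow libraries 645 to 4553. Of the 8 genes, 4 were called higher in muscle than in periosteum, where 20.4% of all genes were called, 3178 higher and 589 lower. The part of these cells in the Il6 differences was not tested. Muscle was digested with collagenase for longer than periosteum and marrow was flushed. Tissue and preparation therefore cannot be told apart, for Il6 or for any other gene compared between tissues here.

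**Figure D4:**
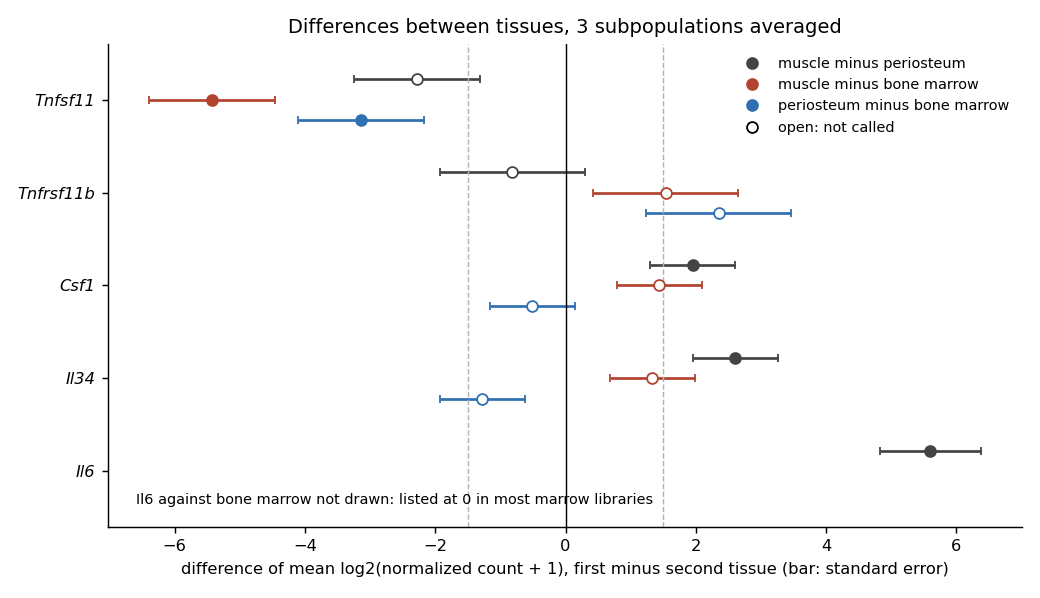
Points give the difference between tissues of mean log2(normalized count + 1), averaged over the 3 subpopulations, with the standard error; filled points were called, and dashed lines mark the log2 threshold of 1.5. Tnfsf11 is called on the negative side in both comparisons with bone marrow, whereas Csf1, Il34 and Il6 are called on the positive side in muscle minus periosteum.

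Counted over single comparisons, the 5 genes were called most often where the P2 groups were involved, and so were all genes. Between tissues, P1 gave 1 call in muscle against periosteum (4.9% of all genes called), 2 in muscle against bone marrow (8.34%) and 0 in periosteum against bone marrow (4.87%). P2 gave 3 (28%), 3 (40.1%) and 2 (20%), and P3 gave 0 (3.5%), 2 (10.4%) and 1 (6.94%). Where limma called 0, the genes with an unadjusted p under 0.05 numbered 2 in periosteum P1 against bone marrow P1 and 2 in muscle P3 against periosteum P3. Between subpopulations, muscle gave 0 calls in P1 against P2 (8.21%), 0 in P1 against P3 (0.466%) and 0 in P2 against P3 (11.2%). At an unadjusted p under 0.05 there was 1 in muscle P1 against P2 and 0 in the other muscle comparisons. Periosteum gave 1 (19.1%), 0 (4.18%) and 4 (17.1%), and bone marrow gave 3 (34%), 0 (6.6%) and 1 (20%). In periosteum P2 against P3, Tnfsf11, Csf1, Il34 and Il6 were all lower in P2. None of the 5 genes was called by limma between P1 and P3 in any tissue, where an unadjusted p under 0.05 was reached by 0 genes in muscle and by 1 gene each in periosteum and marrow. The difference of P1 from the mean of P2 and P3 was compared between tissues in 15 tests, of which 0 were called, where 2.51%, 7.67% and 2.88% of all genes were; 1 had an unadjusted p under 0.05 in limma.

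Per kilobase of exon, levels can be compared between the 5 genes. In bone marrow P1 the mean normalized count per kilobase was 459 for Csf1, 273 for Tnfsf11, 178 for Il34 and 128 for Tnfrsf11b. In muscle P3 it was 971 for Il6, 428 for Csf1, 247 for Il34, 45.8 for Tnfrsf11b and 7.12 for Tnfsf11. In periosteum P3 it was 251 for Csf1, 136 for Il34, 124 for Il6, 88.5 for Tnfsf11 and 48.7 for Tnfrsf11b. Tnfsf11 was thus below only Csf1 in bone marrow P1 and the lowest of the 5 in muscle P3, with SDs of 119.9 and 10.7 (n = 3). In periosteum P2 Tnfrsf11b led at 276 ± 303, on the strength of replicates 1 and 3.

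Of the 7 receptors of these factors, Il6st (gp130), the shared signalling chain of the Il6 family, averaged 944 in bone marrow P2 to 10349.9 in muscle P3 and was higher in muscle (1.97, SE 0.28, adjusted p = 6.494e-06) and in periosteum (1.57, adjusted p = 2.028e-04) than in bone marrow. Il6ra, the ligand-binding chain, averaged 78.2 ± 74.7 in periosteum P2, 66.8 ± 14.1 in muscle P1 and 0.86 to 1.87 in the marrow groups, and was higher in muscle than in bone marrow (adjusted p = 9.059e-04). It was also called higher in muscle than in periosteum (adjusted p = 0.02003), where P3 was listed at 0, and this call was lost under quantile normalization, with groups fitted alone and without the fewest-gene periosteum libraries (adjusted p of 0.06201 to 0.09404). The receptor RANK, Tnfrsf11a, averaged 302 ± 171 in bone marrow P2, the group with the highest leukocyte sum, and 23.9 ± 1.56 in bone marrow P1 (P1 minus P2 -3.42, adjusted p = 0.004823). Csf1r averaged 37.3 to 131 in the 9 groups and was not called in any comparison. Lgr4, another membrane receptor for Tnfsf11, averaged 559.8 ± 86.2 in bone marrow P1 and exceeded P2 in periosteum P1 (4.22, adjusted p = 0.02584). Ptprz1 and Sdc1, which bind Il34, were highest in bone marrow P1 (400.3 ± 74.05) and periosteum P1 (1706 ± 1514). Ptprz1 was lower in muscle (-2.62, adjusted p = 0.00612) and in periosteum (-1.89, adjusted p = 0.048) than in bone marrow, the latter falling to -0.45 under quantile normalization, and Sdc1 was higher in bone marrow P1 than in P2 (5.87, adjusted p = 1.572e-05). In all, 1 receptor was called higher in muscle than in periosteum. Against bone marrow, 2 were higher and 1 lower in muscle, and 1 was higher and 1 lower in periosteum. The shares of all genes called were 20.4%, 21.7% and 20.8% in the order muscle against periosteum, muscle against bone marrow and periosteum against bone marrow, near the 1 and 2 of 7 receptors called in the first and last of these.

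Other cytokines that promote osteoclast formation split between muscle and marrow. Of 16 listed, 15 passed the filter. In muscle against bone marrow 6 were called higher (Ccl2, Ccl7, Csf2, Csf3, Lif and Wnt5a) and 3 lower (Il1b, Il7 and Osm), beside 21.7% of all genes called, with a list median of 1.49 against -0.097 over all genes. In muscle against periosteum 4 were higher and 0 lower, and in periosteum against bone marrow 3 were higher and 4 lower, beside 20.4% and 20.8% of all genes. The monocyte chemokine Ccl2 averaged 10106 ± 9033 in muscle P1. Its mean was 365 ± 218 for periosteum P1 but only 1.72 ± 2.98 for bone marrow P1, and muscle exceeded bone marrow (adjusted p = 6.861e-10). Its neighbour Ccl7 averaged 6661 ± 4806 in muscle P1 and was listed at 0 in all bone marrow P2 libraries. Csf3, the granulocyte growth factor, averaged 457 ± 252 in muscle P3 and at most 1.83 in every periosteal and marrow group. Il1b averaged 697 ± 459.6 and Osm 291 ± 230.5 in bone marrow P2, and both were lower in muscle than in bone marrow (adjusted p = 8.868e-04 and 2.428e-04). The highest leukocyte sum and the highest Ptprc were in the same group, although the sort excluded CD45+ cells, and the part of leukocytes in these levels was not tested. In P1 against P2, Clcf1 was higher in muscle (5.80, adjusted p = 0.01607), Ccl2 was higher in periosteum (4.58, adjusted p = 0.01759), and Il1a and Il1b were lower in bone marrow (-3.81 and -4.95).

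Among 12 inhibitors of osteoclast formation 7 passed the filter. Il1rn, the natural antagonist of the interleukin-1 receptor, averaged 1692 ± 668 in bone marrow P1, 1492 ± 1192 in bone marrow P3 and 909 ± 448 in periosteum P3, against 13.4 to 43.7 in muscle. It was lower in muscle than in bone marrow (-5.57, SE 0.67, adjusted p = 7.034e-07), in muscle than in periosteum (-2.34, adjusted p = 0.01306) and in periosteum than in bone marrow (-3.22, adjusted p = 0.001052). Il18 was higher in muscle than in bone marrow (3.39, adjusted p = 0.02198). Sfrp1, a secreted Wnt antagonist, was lower in periosteum than in muscle and bone marrow (differences of 2.97 for muscle minus periosteum and -2.74 for periosteum minus bone marrow). Wnt16 was higher in periosteum P1 than in P2 (6.48, adjusted p = 0.003966), at 347 ± 287 against 3.79 ± 5.43. The list median was 0.00035 in muscle minus bone marrow and 0.48 in muscle minus periosteum, beside -0.097 and 0.56 over all genes.

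Regulators of the 5 genes were called in both directions. Pth1r, Vdr and Runx2, which encode the parathyroid hormone receptor, the vitamin D receptor and the osteoblast transcription factor, were highest in bone marrow P1, at 13582 ± 5304, 3709.5 ± 851.5 and 3541 ± 790.3. All 3 were called lower in muscle than in bone marrow, Pth1r by -4.81 (adjusted p = 0.004507) and Runx2 by -3.39 (adjusted p = 3.374e-04). Pth1r was also higher in bone marrow P1 than in P2, where it averaged 19.4 ± 33.6 (adjusted p = 2.152e-04). In periosteum it averaged 764 ± 733 in P1 and 8.10 ± 14.04 in P3 (adjusted p = 0.04239), a call lost under 5 alternatives with an adjusted p of 0.05678 to 0.3292. The NF-kB pathway genes Nfkbia and Nfkbiz and the Stat3 feedback inhibitor Socs3 were higher in muscle and in periosteum than in bone marrow. For muscle minus bone marrow the differences were 4.001 (Nfkbiz, adjusted p = 1.757e-09) and 3.73 (Socs3, adjusted p = 3.868e-10), and for periosteum minus bone marrow 3.57 (Nfkbia, adjusted p = 1.136e-10) and 3.39 (Nfkbiz). Cebpd, a C/EBP factor, was higher in muscle than in periosteum (2.28, adjusted p = 0.007017), and so was the oestrogen receptor Esr1 (3.05, adjusted p = 0.001987), while Pth1r and Runx2 were lower (-3.73 and -3.17). Of 15 regulators, 4 were called higher and 3 lower in muscle against bone marrow, 2 and 2 in muscle against periosteum, and 4 and 1 in periosteum against bone marrow. The shares of all genes called in these comparisons, in either direction, were 21.7%, 20.4% and 20.8%. In P1 against P2 of bone marrow 7 were higher and 0 lower, where 34% of all genes were called. Of 50 calls named for the pathway lists 12 were lost with groups fitted alone, 8 with a pseudocount of 0.1 and 8 under quantile normalization, the last including Sfrp1 (-1.47), Esr1 (-1.59) and Il6st (1.36, past the adjusted p but not the log2 threshold) in periosteum against bone marrow.

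**Figure D5:**
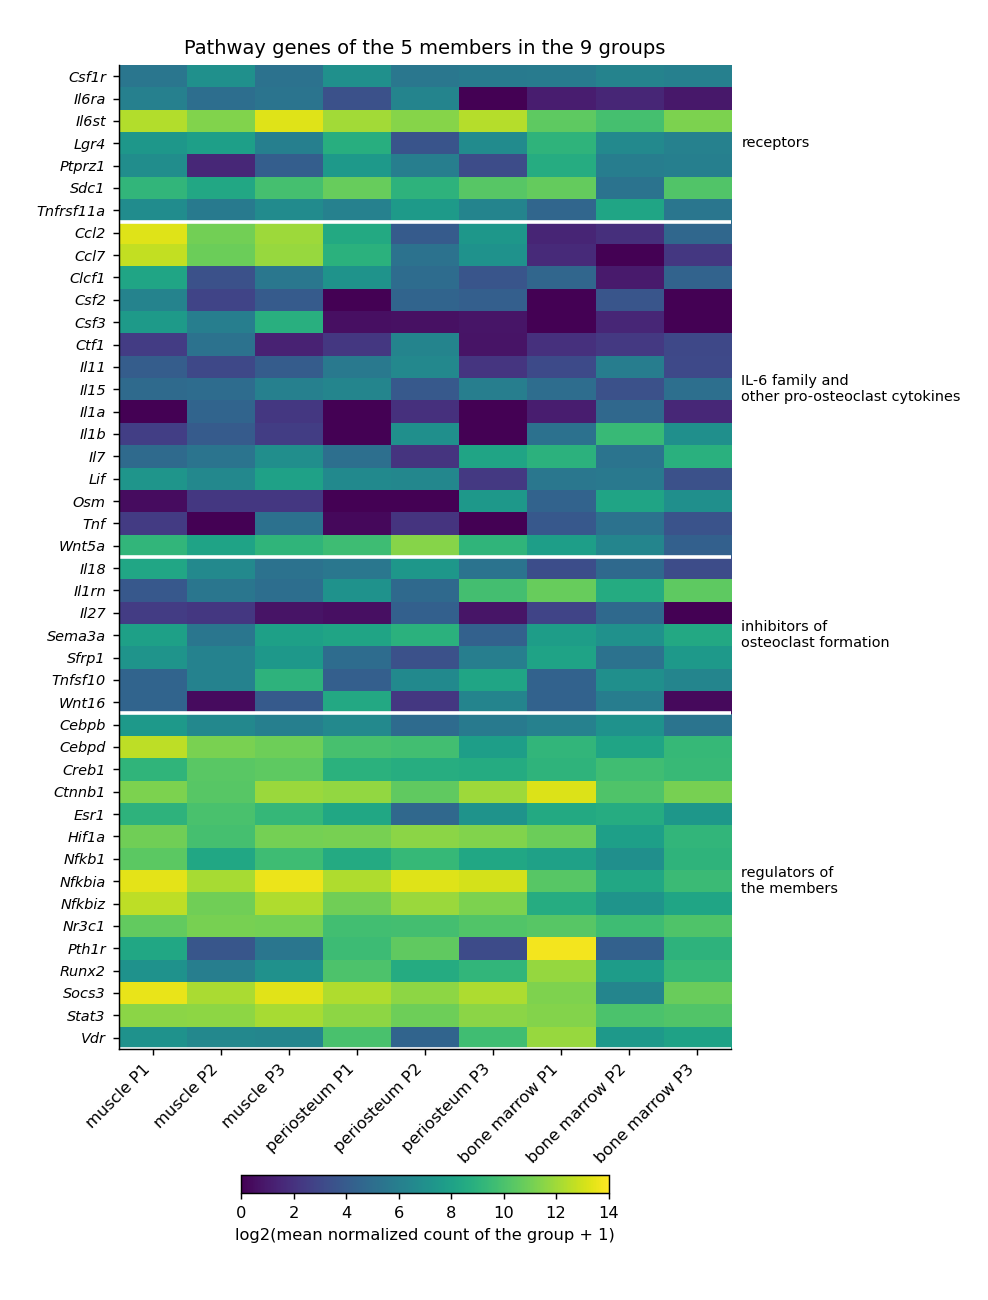
Rows are the 44 pathway genes that passed the filter, in 4 lists, columns are the 9 groups, and colour gives log2 of the group's mean normalized count + 1. Ccl2, Ccl7 and Csf3 are bright in the 3 muscle columns, Il1rn in bone marrow P1 and P3, and Pth1r, Vdr and Runx2 in bone marrow P1.

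Genes of osteoclasts themselves were also read. Of 10 such genes, Dcstamp, which is needed for the fusion of precursors, was at 0 in every group but muscle P3, where it averaged 1.64. Ctsk, which stromal cells also express, led the list in muscle, periosteum P1 and bone marrow P1, and Acp5 in periosteum P2, bone marrow P2 and bone marrow P3. The summed level of the 10 genes ran from 1592 to 7754 per library outside periosteum P3. In periosteum P3, where Mmp9 led, it ran from 3968 to 15397 with a median of 4224, so a single library was high.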

How the data were processed

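RNA from sorted CD45- tdTomato cells of 9 groups with 3 libraries each was amplified with SMART-Seq v4, made into Nextera XT libraries and sequenced on a HiSeq. The authors trimmed reads with Trim Galore, aligned them with STAR and normalized them with DESeq2. The versions, genome build, annotation and counting tool are not given in the sources used here. The deposited table holds normalized counts, a signal from which whole reads could not be recovered, so read depth is unknown. All libraries were used. The reporter entry was left out.

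Values were transformed as log2(normalized count + 1), and a gene was kept where 3 or more libraries held a value of 10 or higher. One model with a mean per group over 27 libraries was fitted in limma 3.58.1 (R 4.3.3), with a trend in the prior variance and Benjamini-Hochberg adjustment over 18442 genes, and tested on simulated data. Tables and plots used Python 3.11.15, numpy 2.4.6, pandas 2.3.3 and matplotlib 3.10.9. Gene positions came from GENCODE M21, which held 29732 of the identifiers. The 5 genes, the pathway and cell marker lists and the motifs were chosen with earlier results of these data known.

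Named from each pathway list were the called genes with up to 2 of the largest changes in each direction, for each tissue comparison and for P1 against P2 or P3, with all receptors, the 3 genes most like each member by Pearson r, the sorting markers, and the highest gene of a marker list. Alternatives were pseudocounts of 0.1 and 5, no filter, a mean of at least 50, a replicate block, no trend, equal library totals with and without globins, quantile normalization, groups fitted alone, and each library left out. Leaving out the periosteum library with the fewest genes above 0 in each group was chosen after seeing the data.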

Additional observations from a re-analysis of the deposited data

How the results depend on the processing

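No call of the 5 genes changed direction under any alternative run. Of 30 calls, those lost numbered 6 with a pseudocount of 0.1, 2 with 5, 4 without the filter, 1 with a mean of at least 50, 2 without the trend, 2 with equal totals, 4 without globins, 4 under quantile normalization, 13 with groups fitted alone and 6 without the fewest-gene periosteum libraries. Calls between tissues within single subpopulations fell from 14 to 7 with groups fitted alone. That setting also added calls, such as Tnfsf11 in bone marrow P1 minus P2 (4.01, adjusted p = 0.004882). The main fit shares 1 estimate of the spread per gene over all 9 groups. The spread itself differed between groups, with an SD of log2 Il34 of 0.153 in muscle P1 and 2.94 in periosteum P2. The difference of P1 from the mean of P2 and P3 gave 1 call with groups fitted alone (Csf1, muscle minus bone marrow, -2.18, adjusted p = 0.01713) and 1 without the fewest-gene periosteum libraries (Csf1, periosteum minus bone marrow, -2.996, adjusted p = 0.04558). Leaving out each library gave 6 to 9 calls between averaged tissues, 10 to 14 within subpopulations, 5 to 13 between subpopulations (5 without bone marrow P2 replicate 1) and 0 for the difference of P1. The ratio of Tnfsf11 to Tnfrsf11b then ran from -2.15 to -0.82 for muscle minus periosteum, -7.65 to -6.32 for muscle minus bone marrow and -6.04 to -4.95 for periosteum minus bone marrow. With the replicate number as a block the counts stayed at 7, 14, 9 and 0, all 30 calls were kept, and 1 of 50 pathway calls was lost. Same-numbered libraries did not deviate together over all genes kept (mean r 0.000242 over 36 pairs of groups, from -0.0592 to 0.0502). An effect of a shared animal that is small beside the spread between replicates would not show here. Whether the numbers pair samples is therefore unknown. The causes of the changes in calls were not tested.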
